A study of Arabidopsis thaliana with 10 samples.

Results

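These peaks of chromatin bound by tagged LIMYB in Arabidopsis lie across the 3′ end of a gene and cover its last base. They were the nuclear peaks, on chromosomes 1 to 5, that the authors' location column in the L1 and L4 lists places over the end of the assigned gene, each peak counted once by its position. There were 638 of them among 9604 nuclear peaks in L1 (6.64%, 95% Wilson interval 6.16 to 7.16) and 635 among 8952 in L4 (7.09%, 6.58 to 7.64). The location label was checked against the gene coordinates and strand in the files: every such peak held the 3′ end of its gene and none held the 5′ end.

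All samples were whole seedlings of LIMYB overexpression lines that carry a YFP-LIMYB transgene, precipitated with an antibody against GFP. The groups L1 (2 samples), L3 (4 samples) and L4 (4 samples) carry different line names in their labels, which give neither the promoter of the transgene, the state of the native LIMYB gene, nor whether the lines are independent insertions. In L3 and in L4 the replicate numbers 1 and 2 each occur on 2 samples, told apart by a title suffix that is not explained, so the 4 samples of such a line may be 2 replicates. The name LIMYB-32 in every title is not explained either. Each material was a pool of seedlings, and no seedlings without the transgene, input DNA or control precipitations are among the samples. One peak list stood for each line, so values per peak carry no replicate error, differences between L1 and L4 could not be tested, and depth per sample is unknown. The L3 list held no nuclear peak and gave no member.

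LIMYB is a MYB-domain transcriptional repressor in the antiviral pathway of the receptor kinase NIK1, which acts through the ribosomal protein RPL10. At the 3′ end of a gene the transcript is cleaved and polyadenylated and the polymerase is released. In a compact plant genome the same stretch of DNA is often close to the next gene, either its promoter, where both genes run the same way, or its own 3′ end, where the genes converge.

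Nuclear peak summits piled up at gene 3′ ends in both lists. The count of summits fell towards the 3′ end, rose sharply at the end itself and fell away beyond it. In short genes the positions before the end also take in summits upstream of the gene, so no trend along the gene body is read. In L1, bins of 100 bp held 98 summits from 300 to 200 bp inside the end and 105 from 200 to 100 bp inside it. The last 100 bp of the gene held 309 and the first 100 bp beyond it 258, after which the next 2 bins held 175 and 122. In L4 the same 6 bins held 84, 144, 250, 275, 152 and 126. These bins count the summits of all nuclear peaks around the end of the assigned gene, not those of the members alone. The distance to a gene runs from its 5′ end, and the assignment decides around which gene's end a summit is counted. Around 5′ ends the pattern was different: summits were dense upstream, with 300 in L1 and 282 in L4 from 300 to 200 bp before the 5′ end, and sparse just inside the gene, with 99 and 109 from 100 to 200 bp after it. No test was run on these counts. The part of the gene assignment, a background common to both lines, or unequal read mapping along genes was not tested.

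**Figure D1:**
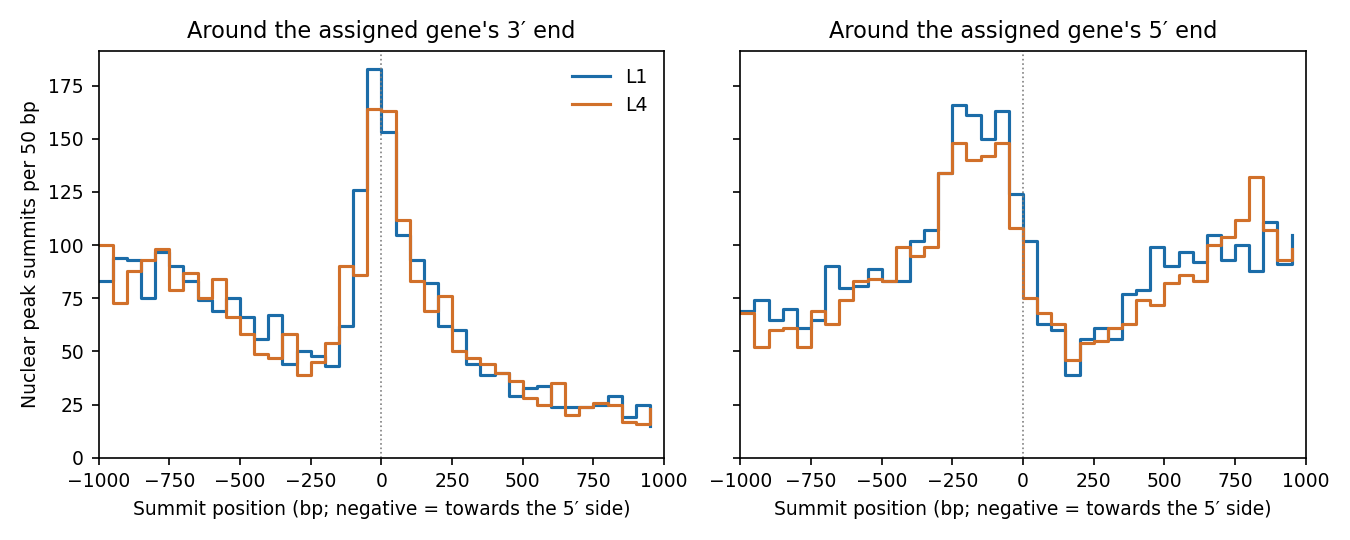
Number of nuclear peak summits per 50 bp (y axis) by distance in bp (x axis) from the 3′ end (left) and from the 5′ end (right) of the assigned gene, in L1 (blue) and L4 (orange). In both lists the 3′ panel has a narrow maximum at the end itself between lower counts before and beyond it. The 5′ panel has a broad maximum upstream and a dip just inside the gene.

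The density at the 3′ end held in every group of genes examined. Summits within 100 bp of the end numbered 567 in L1 and 525 in L4, which is 2.27 and 2.08 times the mean of the stretches of equal length from 100 to 300 bp on either side. By gene length in 3 groups the ratio in L1 was 2.04 for the shortest, 2.58 for the middle and 2.44 for the longest genes, and in L4 it was 1.92, 2.27 and 2.3. Over the 5 chromosomes the L1 ratio ran from 2.03 to 2.55 and the L4 ratio from 1.71 to 2.43. Peaks in the upper 50% by fold had a ratio of 2.86 in L1 against 1.78 in the lower 50%, while in L4 these ratios were 2.14 and 2.01. Peaks found in both lists had 2.58 in L1 and 2.43 in L4, and those found in one list only had 1.99 and 1.74.

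The summits of the peaks across 3′ ends lay near the end. The median summit lay 5 bp inside the end in L1 (position -5, quartiles -48.8 and 46.8) and 1 bp beyond it in L4 (quartiles -48 and 51.5). In L1, 334 of 638 summits (52.4%, 48.5 to 56.2) lay within 50 bp of the end, and in L4 320 of 635 (50.4%, 46.5 to 54.3). Summits beyond the end made up 46.9% in L1 (43.0 to 50.7) and 50.6% in L4 (46.7 to 54.4). The rule itself keeps summits near the end, since a peak has to cover it. It thereby largely fixes the median, the split between the sides and the lengths that follow, so nothing is read from them. A median of 126.5 bp of the peak lay inside the gene and 118.5 bp beyond it in L1, and 126 and 135 bp in L4.

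In median strength they were close to the rest of each list, with more members among the strong peaks than among the weak. With each list divided by fold into 4 groups of equal size, the highest held 195 members in L1 and 189 in L4. The lowest held 111 and 140. Peaks across 5′ ends also had more in the highest group (158 and 142) than in the lowest (88 and 127). So did peaks inside genes, with 583 and 638 against 568 and 548. Upstream and downstream peaks had fewer in the highest group than in the lowest in both lists. The authors' fold enrichment, the signal at the summit over a background whose definition the files do not give, had a median of 8.88 in L1 (quartiles 7.83 and 11.49; all nuclear peaks 8.72) and 12.03 in L4 (9.58 and 15.96; all 11.65). Their median pileup, the signal at the summit, was 19 in L1 and 18 in L4, against 19 and 17 over all nuclear peaks. The median width was 233 bp (L1) and 260 bp (L4), against 225 and 238 bp over all, where a wider peak is also more likely to reach an end. L1 members spanned folds of 2.9 to 32.48 and L4 members 3.42 to 41.6. Both lowest folds were at AT2G01008, where the pileup was high, 137 in L1 and 112 in L4. AT2G08986 likewise had pileups of 381 and 359 with folds of only 4.31 and 5.61.

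The values on both sides of the rule's edge are given as a description. In L1, 46 peaks inside genes and 73 downstream had their nearest edge within 50 bp of the 3′ end, each with a median fold of 7.92. The 104 members with 50 bp or less inside the gene had 8.88 and the 99 with 50 bp or less beyond it had 8.35. Of these 4 sets, in the same order, 45.7%, 53.4%, 51.0% and 47.5% overlapped an L4 peak. In L4 the inner and outer neighbours numbered 64 and 77, with medians of 10.19 and 13.23, and the corresponding members had 11.03 (91 peaks) and 10.9 (89 peaks). In L4 the shares that overlapped an L1 peak were 37.5%, 54.5%, 45.1% and 48.3%.

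The peaks across 3′ ends were shared between the lists more often than those of any other common location class at the deposited threshold. In L1, 350 of 638 (54.9%, 51.0 to 58.7) overlapped an L4 peak by at least 1 bp, against 45.0% of all nuclear L1 peaks. In L4, 354 of 635 (55.7%, 51.9 to 59.6) overlapped an L1 peak, against 48.2% of all. Peaks inside genes had 40.6% in L1 and 41.2% in L4, those across 5′ ends 42.7% and 43.6%, those upstream 45.0% and 50.4%, and those downstream 48.0% and 52.2%. This is a description of 2 lists, without a test, and L1 and L4 count largely the same pairs of peaks. With only peaks of −log10 q of at least 10 in both lists, the L4 share was 46.8%, below the 50.5% of downstream peaks and close to the 46.9% of upstream peaks. In the upper 50% by fold the L4 shares were 46.4% across 3′ ends and 47.0% downstream.

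**Figure D2:**
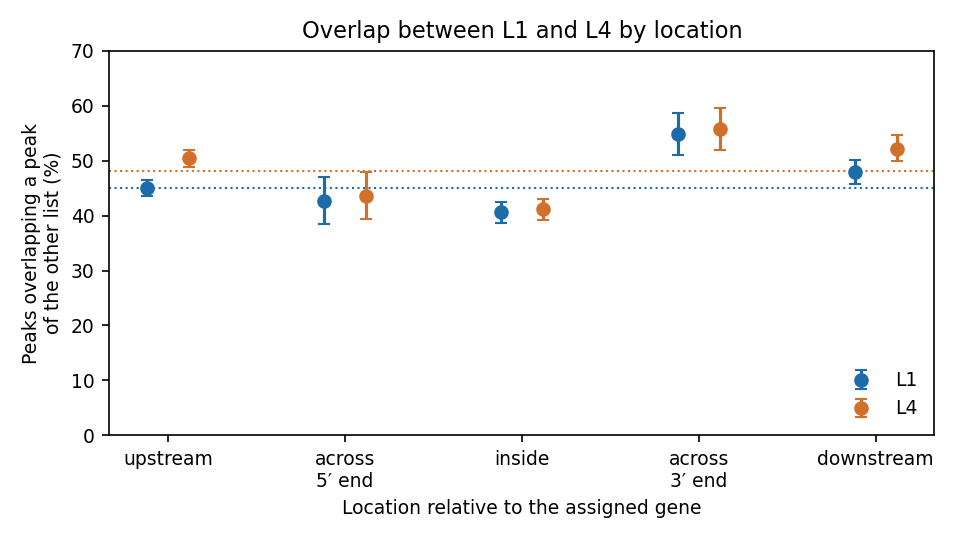
Percent of peaks that overlap a peak of the other list (y axis) for each location class (x axis), in L1 (blue) and L4 (orange); bars are 95% Wilson intervals, which cover counting error only, and dotted lines give all nuclear peaks of the list. Of the 5 classes shown, the one across the 3′ end is highest in each list, at 54.9% and 55.7%; the 9 L1 and 7 L4 peaks that cover a whole gene are not plotted.

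The order of the classes was not the same at every fold. When each list was divided by fold into 4 groups of equal size, the peaks across 3′ ends had the highest share of the 5 location classes in 3 groups of L1 and 3 groups of L4, and downstream peaks had it in the other 2. In the group with the lowest folds 43.2% were shared in L1 and 42.9% in L4, and in that with the highest folds 76.9% and 71.4%. Several of these leads were small: in L4 downstream peaks had 42.3% and upstream peaks 42.2% in the lowest group, and downstream peaks had 71.1% in the highest. In the second L4 group the peaks across 3′ ends had 41.7%, below the 43.9% of downstream and the 42.4% of upstream peaks, and in the third L1 group they had 49.1% against 49.9% downstream. None of these differences was tested.

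Many members recurred at the same gene. In 313 genes an L1 peak across the 3′ end overlapped an L4 peak across the same end, which is 49.1% of the L1 members and 49.3% of the L4 members. The summits of these pairs lay a median of 27 bp apart (quartiles 10 and 53), and in 241 pairs (77.0%) both summits lay on the same side of the end. Their folds had medians of 10.2 in L1 and 13.23 in L4, against 8.35 and 10.9 for the 288 L1 and 281 L4 members that overlapped no peak of the other list. Across the 313 pairs the folds had a Spearman's rho of 0.346 and a Pearson's r of 0.534, given as a description, since pairs share their libraries and are not independent.

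**Figure D3:**
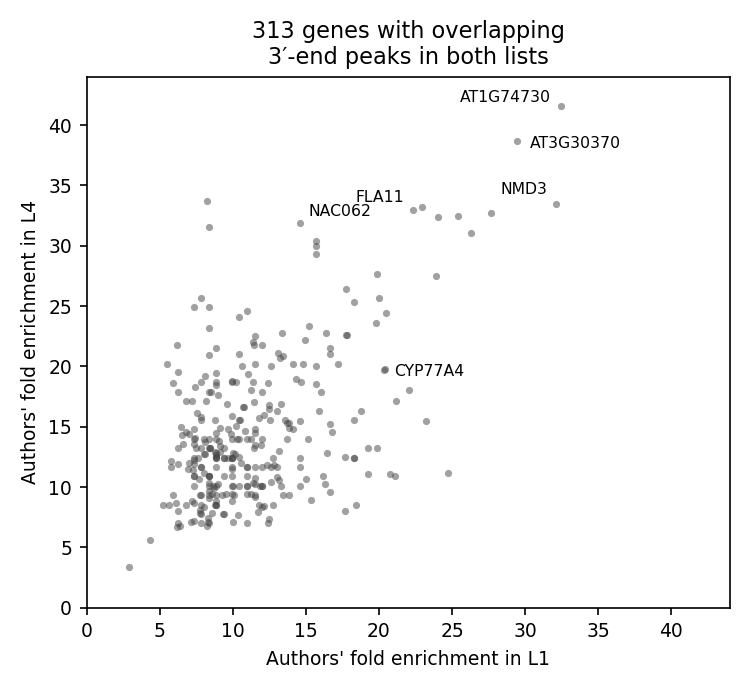
The authors' fold enrichment in L1 (x axis) and L4 (y axis) for the 313 genes with overlapping peaks across the 3′ end in both lists; each point is a gene. Most points lie below a fold of 15 in L1, and AT1G74730, AT3G30370 and NMD3 stand at the upper right. The scales of the axes were set separately by the authors' peak calling.

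The strongest members were mostly common to both lists, and strong peaks of the other location classes often were too. All 15 L1 members with the highest folds overlapped an L4 peak and 14 of the 15 in L4 overlapped an L1 peak, and 12 and 13 of these partners also spanned the 3′ end. In the highest of the 4 fold groups, the other location classes had from 64.6% to 71.2% shared in L1 and from 54.9% to 71.1% in L4. The highest 15 peaks of those classes were not counted. AT1G74730, on the plus strand of chromosome 1, had the highest fold in both: 32.48 with a pileup of 89 at 28079761 to 28080110 in L1, and 41.6 with a pileup of 99 at 28079747 to 28080102 in L4. Its summits lay 2 bp apart, at -57 and -59, inside the gene. Next by the lower fold of both lists was NMD3 (AT2G03820), which encodes the adaptor that exports the large ribosomal subunit from the nucleus. It had a fold of 32.12 and a pileup of 88 at chromosome 2, 1164739 to 1165026 in L1, and 33.47 and 43 at 1164752 to 1165016 in L4. Both NMD3 summits lay beyond the end, at 60 and 66 bp, on the side of the convergent neighbour AT2G03810.

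Of the 15 genes ranked by the lower fold of both lists, NMD3 and 4 others have a symbol in the table used. FLA11 (AT5G03170), a fasciclin-like arabinogalactan protein of secondary cell walls, reached 22.3 and 32.97, and its summits lay 37 and 43 bp beyond the end. Its peaks, at chromosome 5, 752576 to 752840 in L1 and 752548 to 752851 in L4, also covered the 3′ end of the convergent gene P58IPK, whose model overlaps that of FLA11 there. ENODL13 (AT5G25090), an early nodulin-like protein, had folds of 27.67 and 32.69 with summits inside the gene at -38 and -55. MSR1 (AT3G21190), named for mannan synthesis, a wall polysaccharide pathway, had 19.87 and 27.7. CYP77A4 (AT5G04660), a cytochrome P450, had 20.44 and 19.76, with summits at -22 and -23. These genes were picked by rank, and no theme was tested among them.

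The other 9 genes, like AT1G74730, have no symbol there. AT3G30370, a short gene of 540 bp, had folds of 29.44 and 38.66. AT3G14760 had 26.32 and 31.05 with summits 115 and 93 bp beyond its end, and AT3G24250 had 25.44 and 32.5. For AT2G03460 the folds were 24.04 and 32.38, for AT1G56720 23.89 and 27.5, and for AT3G06570 22.96 and 33.19. AT1G58120, AT2G38695 and AT1G06340 had L1 folds of 20.5, 20 and 19.83 and L4 folds of 24.46, 25.66 and 23.57. In the 15 pairs the L1 and L4 summits were between 1 and 52 bp apart.

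**Figure D4:**
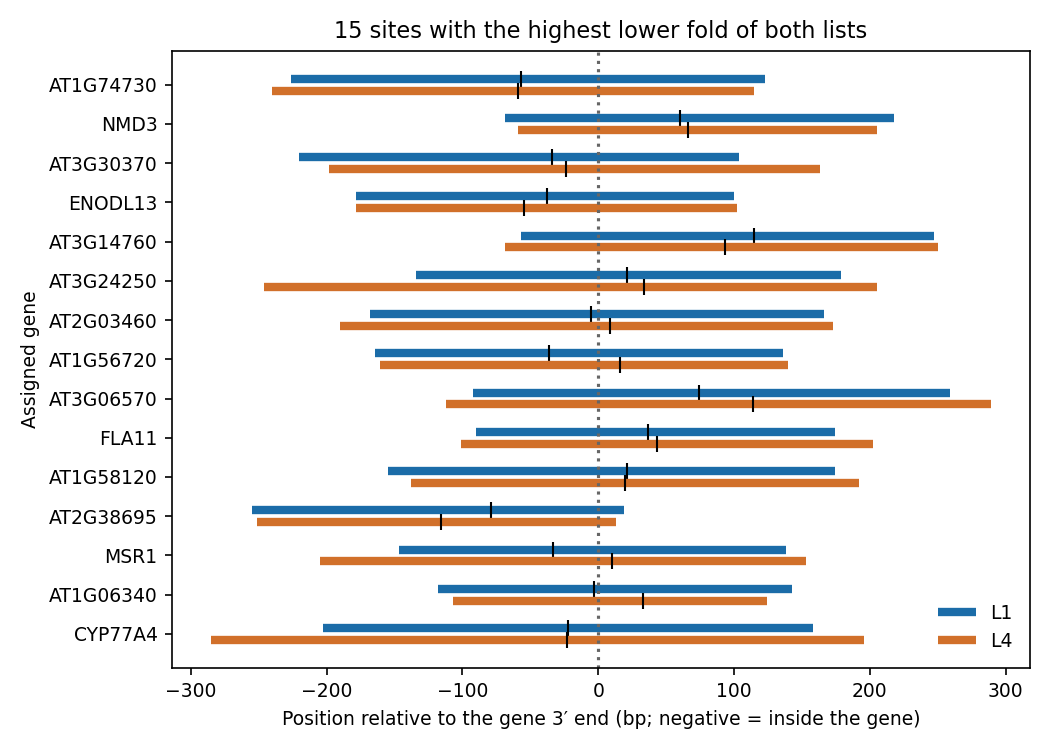
Peak extents in bp relative to the gene 3′ end (x axis; negative positions are inside the gene) at the 15 genes with the highest lower fold of both lists (y axis), in L1 (blue) and L4 (orange), with the summit as a black tick. The pairs of bars nearly coincide; at AT2G38695 the peaks lie almost wholly inside the gene, and at NMD3 and AT3G14760 mostly beyond it.

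Members found in one list only were weaker, with a few strong exceptions. In L4, AT5G07960 had a fold of 32.32 with a pileup of 53 at chromosome 5, 2543284 to 2543541, and no L1 peak overlapped it. AT1G23037 (27.24), LCR61 (26.52), a small cysteine-rich secreted protein gene, AT1G57780 (26.25) and TGA3 (25), a bZIP transcription factor of salicylate defence, followed. In L1 the highest such folds were 20.17 at AT3G42560, 17.38 at AT1G79170, 17.23 at AT3G44716, 17.19 at AT1G23950 and 16.71 at AT1G62045. Absence from a list says only that no overlapping peak passed the authors' threshold there.

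The gene beyond the 3′ end was more often convergent at these sites than over all genes in the lists. The strand of that neighbour was known for 223 of the 640 L1 genes and 237 of the 637 L4 genes with such a peak. It was known only where the neighbour itself had a peak in the lists, so the shares describe that part of the genes. Of these, 139 in L1 (62.3%, 55.8 to 68.4) and 153 in L4 (64.6%, 58.3 to 70.4) were convergent, against 52.8% (51.2 to 54.3) of all 3847 listed genes with a known neighbour. Genes with a downstream peak had 58.3% and 59.6%, and those with a peak inside 52.7% and 52.6%. The authors' assignment cannot be told apart from this share or from the distances that follow. Distances run from a gene's 5′ end, so a peak near the start of a close neighbour in the same direction (tandem) may be assigned to that neighbour. None of the 84 tandem neighbours in L1 or the 84 in L4 started within 500 bp of the end, whereas 86 of 139 convergent ones in L1 (61.9%) and 100 of 153 in L4 (65.4%) ended that close. The part of the assignment in this share, and the difference itself, were not tested.

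**Figure D5:**
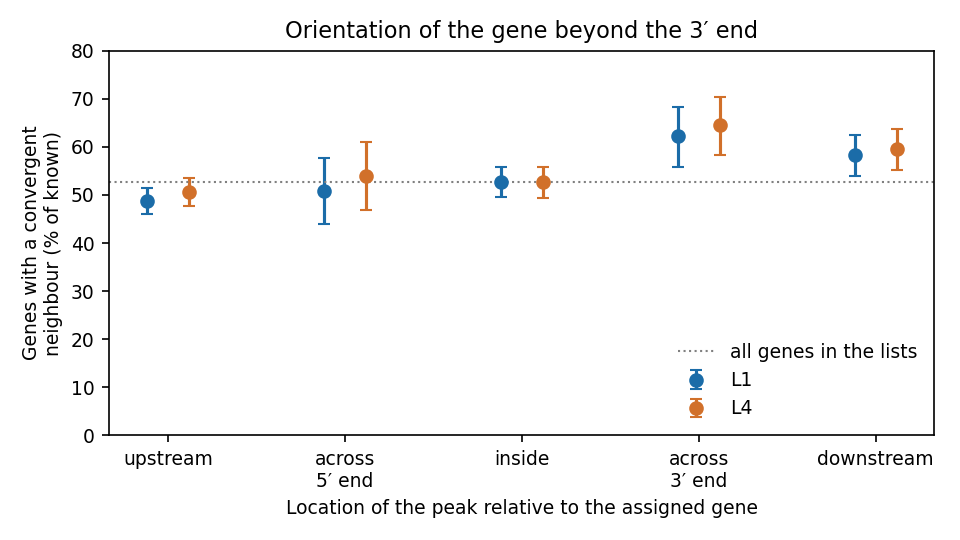
Percent of genes whose neighbour beyond the 3′ end is convergent (y axis), among genes with a known neighbour, by the location class of the peak (x axis) in L1 (blue) and L4 (orange), with 95% Wilson intervals; the dotted line gives all genes in the lists, 52.8%. Genes with a peak across the 3′ end have 62.3% and 64.6%.

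At some pairs of genes on opposite strands 1 peak covered both 3′ ends. This was seen for 57 members in L1 and 63 in L4, and 2 further members in each list covered the end of a second gene on the same strand. None covered the 5′ end of any gene named in the lists. The assignment, which measures distance from the 5′ end, largely fixes this count in advance, so nothing is read from it. In 38 of the 313 pairs the L1 and the L4 peak both covered the same second 3′ end, with a median lower fold of 9.88 against 9.6 for all pairs. Besides FLA11 and P58IPK, AT1G48100 and ECT7 shared such a site, singled out after the values were seen. ECT7 is a gene of the YTH family of readers of methylated RNA. The site had a fold of 16.67 in L1, at chromosome 1, 17769788 to 17770084, and of 21.53 in L4. The site shared by FLA5, another fasciclin-like arabinogalactan gene, and its neighbour AT4G31360 had 13.13 in L1 and 13.01 in L4.

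The assignment also keeps some 3′ ends out of the class. Among peaks with another location label, 179 in L1 and 172 in L4 also covered the 3′ end of a gene named in the lists, 129 and 114 of them labelled as upstream of their assigned gene. Of these peaks, 97 in L1 (54.2%, 46.9 to 61.3) and 101 in L4 (58.7%, 51.3 to 65.8) were shared, similar to the members. Their median folds were 8.88 and 11.64. The genes of the members had median lengths of 1444.5 bp (L1) and 1422 bp (L4). Genes of all nuclear peaks had 1878 and 1898 bp, those with a peak inside 2499 and 2536.5 bp, and those with a downstream peak were shorter, at 1185 and 1181 bp. Plus-strand genes made up 57.4% of the members in L1 and 58.3% in L4, against 49.0% and 51.2% of all nuclear peaks. Peaks inside genes had 50.6% in L1 and 56.7% in L4, and those across 5′ ends 48.3% and 43.8%. Upstream peaks had 47.2% and 48.3%, and downstream peaks 48.0% and 49.1%. The files measure the distance from the peak start on both strands, and the part of this in the strand share was not tested.

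Most genes with a peak across the 3′ end had no other peak, which also held over all genes with a peak. Another peak was assigned to 146 of 640 genes in L1 (22.8%) and 134 of 637 in L4 (21.0%), counting genes with more than 1 peak. Over all genes with a nuclear peak, 16.3% in L1 and 16.0% in L4 had more than 1. Counted the same way, genes with an upstream peak had 25.1% and 25.6% and those with a peak across the 5′ end 19.0% and 17.1%. Those with a peak inside had 19.8% and 18.5%, and those with a downstream peak 37.4% and 36.6%. Each class given here lay above the share over all genes. A further peak with its summit from 1000 bp upstream to 100 bp downstream of the 5′ end was found in 51 genes in L1 (7.97%) and 41 in L4 (6.44%). Members lay on all chromosomes: chromosome 1 held 27.6% in L1 and 25.7% in L4, and chromosome 4 held 13.8% and 13.1%, where all peaks had 24.3%, 25.3%, 16.1% and 15.7%.

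The series asks about photosynthesis genes, of which a few had a peak across the 3′ end, as few genes did in all. Over all 27444 nuclear protein-coding genes of the table, 2.31% had one in L1, 2.29% in L4 and 1.13% in both. Of 97 genes of 6 photosynthesis lists, 4 had one in L1 (4.12%), 4 in L4 (4.12%) and 3 in both (3.09%). These counts are small, and their difference from the share over all genes was not tested. The 3 in both were PSAG, TIM and PCB2. PSAG, for a subunit of photosystem I, reached 11.22 (L1) and 9.45 (L4), and its summits lay 97 and 92 bp beyond the end, with the L1 peak at chromosome 1, 20802445 to 20802681. TIM, the plastid triose phosphate isomerase of the Calvin-Benson cycle, had 8.88 and 11.68. PCB2, which reduces divinyl chlorophyll precursors, had 7.31 and 12.45, with both summits 13 bp beyond the end. LHCB4.2, a minor antenna protein, had a peak only in L4, with a fold of 21.71 and a pileup of 33. PETE1, a plastocyanin gene, had one only in L1 (8.35). None of the 11 photosystem II genes had one.

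Among the listed genes of translation 1 had a peak across the 3′ end. The lists need not hold every gene of translation, and genes without a symbol in the table used may be missing. This count therefore covers the listed genes only and gives no share of all ribosomal protein genes. Of 59 cytosolic ribosomal protein genes, 1 had a peak across the 3′ end in L1 (1.69%) and 0 in L4, and of 24 translation factor genes 0 had one in either list, where the share over all genes, 2.31% and 2.29%, also gives few. The 1 listed gene was RPL10B, also in the list of the NIK1 pathway. It had a fold of 8.35 and a pileup of 16 at chromosome 1, 9322871 to 9323075, and no overlapping L4 peak. NIK1, NIK2, NIK3 and SAC52 had no peak. The peaks of SAG24 in L1 and of AT5G05800, the LIMYB gene, in both lists lay inside the gene, with the AT5G05800 summits at -1112 in L1 and -636 in L4 relative to the 3′ end.

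Of 319 transcription factor genes of the WRKY, MYB, bHLH, NAC and bZIP symbols, 5 had a peak across the 3′ end in L1 (1.57%) and 4 in L4 (1.25%), beside 2.31% and 2.29% over all genes. These counts are small, and the difference was not tested. A gene of these families under another symbol can be missing, as is TGA3, the bZIP gene with an L4 peak given above. NAC062, a membrane-bound NAC factor of stress responses, had folds of 14.62 and 31.91 at its 3′ end, with summits 4 and 60 bp beyond it. MYB37, a regulator of axillary meristems, had 9.4 and 12.45. AS1, a MYB factor of leaf polarity found through a synonym, had 17.12 in L4, and MYB1 had 13.57 in L1. The control lists had 1 of 9 seed storage and oleosin genes (OLEO1, 9.4 in L1) and 1 of 7 constitutive genes (ACT7, 6.44 in L1), and none in L4.

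Among 56 symbol families of at least 20 genes, 19 had no gene with a peak across the 3′ end, and 8 had 4 or 5 genes with one in either list. The share over all nuclear genes was 3.47% in either list. UGT, the glycosyltransferases, had 5 of 58 genes (8.62%) and CYP, the cytochrome P450 genes, 5 of 229 (2.18%). The early nodulin-like ENODL genes had 4 of 22 (18.2%), with ENODL13 and ENODL20 in both lists, the latter at 11.76 and 8.48. Of the tau glutathione transferases GSTU, 4 of 27 had one (14.8%), with GSTU23 at 12.01 and 17.9 and GSTU25 at 11.49 and 10.75. GSTU24 and GSTU25 are neighbours and alike in sequence, and whether reads are shared between them was not examined. XTH wall enzymes had 4 of 30 (13.3%), none in both lists. The LCR genes had 4 of 80 (5.0%) and the MYB genes 4 of 120 (3.33%). These counts are small and no family was tested.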

How the data were processed

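Nuclei of formaldehyde-fixed seedlings were used for ChIP with an anti-GFP antibody and sequenced, per the labels. The submitters' processing notes name MACS2 without a version. How it was run, the aligner, the build of the genome, a control track, and pooling of replicates before calling are not stated in the labels or headers. Per the file headers, each peak has a deposited pileup (signal at its summit), a deposited fold enrichment (a ratio whose background is unstated) and a deposited q-value as −log10. Positions and distances are those of the deposited files. Genes were assigned by nearest location, per the file headers; the signed distance equals peak start minus gene 5′ end in 100% of nuclear entries.

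Entries repeated for a peak assigned to 2 genes (2 members in each list) were counted once. Location, overlap (at least 1 bp), summit position and the neighbouring gene were computed with Python 3.11.15, numpy 2.4.6, pandas 2.3.3 and scipy 1.17.1, after a check on simulated peaks. Symbols and gene order came from a RefSeq table of TAIR10.1, without its coordinates; 634 of 640 L1 genes and 628 of 637 L4 genes matched. A neighbour's strand was known only where the lists name it. Intervals are 95% Wilson intervals and cover counting error only. No test between lines was possible.

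Members, gene lists and rules were chosen with earlier results of these data known. Named genes were the 15 genes with the highest lower fold among pairs at the same 3′ end, the 5 highest unshared folds per list, up to 4 members per gene list ranked by fold, all genes of the NIK1 list, and the families with most members, ties included. 1 of these families is not reported here. Alternatives were a −log10 q of at least 10, the upper 50% by fold, entries in place of peaks, summits within 250 bp of the end, a 50% overlap and the same gene only.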

Additional observations from a re-analysis of the deposited data

Results flagged for a closer look

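Peaks across gene 3′ ends also occurred on organelle DNA, outside the nuclear lists and with no control samples to set them against. There were 9 in L1, of which 6 were plastid peaks with folds from 2.54 to 8.2 and 3 mitochondrial, and 15 in L4, with 9 plastid peaks from 2.48 to 7.34 and 6 mitochondrial. The 3 in L3 were all plastid, with folds from 10.05 to 18. Their source was not tested, and whether reads of organelle DNA also reached nuclear members was not examined.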

How the results depend on the processing

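No paired analysis was possible because only 1 list per line carries values, without columns for replicates, and so none could be left out. The share of nuclear peaks across 3′ ends was 7.54% in L1 and 7.84% in L4 in the upper 50% by fold, and 9.99% and 10.6% when defined by a summit within 250 bp of the end. With the 3′ end of any gene in the lists, chosen after seeing the data, it was 8.51% and 9.01%. The shared part was 50.6% in L1 and 46.8% in L4 at −log10 q of at least 10 in both lists, 46.1% and 46.4% in the upper 50% by fold of both, and 49.1% and 49.3% with the same gene's 3′ end only; the first 2 settings leave fewer peaks to overlap by construction. The median fold was 11.45 and 14.96 at −log10 q of at least 10. The convergent share in L1 was 69.9% in the upper 50% by fold. Photosynthesis genes with a 3′-end peak in L1 numbered 1 at −log10 q of at least 10 and 2 in the upper 50% by fold. Where no cause is given, the cause was not tested. The other 13 values of these results stayed within the 95% interval of the reported value or within 1.5 times the count. Depth per library is unknown.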
